A study of Mus musculus with 8 samples.

Results

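The antigen presentation genes are 10 genes of the 24054 in the deposited table, chosen by symbol: B2m, H2-K1, H2-D1, Tap1, Tap2 and Tapbp of the class I pathway, and H2-Aa, H2-Ab1, Cd74 and Ciita of the class II pathway. All 10 were found. They were measured by RNA-seq in soleus (SOL), a slow postural muscle of the calf, from 4 MI4KO mice and 4 flox mice. Both groups were male C57BL/6 mice, both are labelled with a high fat diet, and no age is given for the sequenced animals. Flox mice carry the floxed Irf4 alleles without Cre, and MI4KO mice carry the same alleles together with Myl1-Cre, which deletes Irf4 in cells that use the promoter of the fast myosin light chain gene Myl1. Macrophages, dendritic cells, B cells and endothelial cells of the same muscle are not targets of this Cre, and whole muscle RNA holds transcripts of all of them. Within each group the mice are numbered from 1 to 4 by the order of the numbers in their labels. Nothing in the labels says whether mice of the different groups were littermates.

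Major histocompatibility complex (MHC) class I molecules show peptides from the inside of a cell to CD8+ T cells, and nearly all nucleated cells make them. A heavy chain, here H2-K1 or H2-D1, pairs with beta-2-microglobulin, the product of B2m, and is filled with peptides that the transporter Tap1/Tap2 carries into the endoplasmic reticulum while tapasin, the product of Tapbp, holds the complex together. Class II molecules show peptides taken up from outside to CD4+ T cells and are made mainly by dendritic cells, macrophages and B cells. Their alpha and beta chains, H2-Aa and H2-Ab1, are escorted by the invariant chain Cd74, and the coactivator Ciita switches all of these genes on. IRF4, the factor deleted in MI4KO muscle, belongs to the interferon regulatory factors, some of which drive class I genes after interferon.

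Of the 10 genes, 7 lie in the MHC region of chromosome 17. In GENCODE M21 on GRCm38, H2-K1 spans 33996017 to 34000347 on the minus strand, Tap1 34187553 to 34197225, Tap2 34203527 to 34216321 and H2-Ab1 34257689 to 34269419 on the plus strand, H2-Aa 34282744 to 34287823 on the minus strand, and H2-D1 35262730 to 35267499 on the plus strand. Tapbp lies just outside H2-K1, at 33915899 to 33929292. B2m is on chromosome 2 (122147686 to 122153083) and Ciita on chromosome 16 (10480059 to 10528418), each on the plus strand. The promoters are shown because class I and class II genes are known to share a promoter element, in which an X2 box bound by CREB-type factors is followed at a fixed distance by a Y box bound by NF-Y. The RefSeq promoter table of GRCm38.p6 held 6 of the 10 genes. In the stretches below, written 5′ to 3′ on the gene's own strand, capitals mark TGACG (in the X2 box), ATTGG (the reversed CCAAT of the Y box) and the interferon-type motifs GAANNGAAA and GAAANNGAAA, each on either strand.

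H2-K1, chr17:34000349-34000458, minus strand: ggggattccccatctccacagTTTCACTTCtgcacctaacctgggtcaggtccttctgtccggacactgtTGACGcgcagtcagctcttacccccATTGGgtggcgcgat
H2-D1, chr17:35262993-35263022, plus strand: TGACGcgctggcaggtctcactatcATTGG
B2m, chr2:122147539-122147648, plus strand: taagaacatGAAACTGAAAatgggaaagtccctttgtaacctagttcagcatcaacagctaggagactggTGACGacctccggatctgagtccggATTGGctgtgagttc
H2-Aa, chr17:34287858-34287967, minus strand: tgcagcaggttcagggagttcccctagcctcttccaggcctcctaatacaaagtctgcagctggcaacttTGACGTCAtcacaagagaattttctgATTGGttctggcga
Tap1, chr17:34187470-34187499, plus strand: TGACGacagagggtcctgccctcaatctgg

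The stretches of H2-K1, B2m and H2-Aa cover 110 bases, lie before the RefSeq start site and hold no exon of GENCODE M21. That of B2m lies in an intron of Patl2, a gene on the other strand. For H2-D1 and Tap1, where an exon of an alternative transcript of H2-D1 and of Psmb9, respectively, runs over the region, only 30 bases from TGACG are given. TGACG stood 20 bases before ATTGG in H2-K1, H2-D1 and B2m, and 21 bases before it in H2-Aa, and this pair was absent from the 250 bases before the start sites of Tap1 and Tapbp. In H2-Aa the longer TGACGTCA reads the same on both strands. The pair at this spacing, which was chosen after the sequences were seen, stood in 50 of 32851 promoter windows of 250 bases (0.152%), and in 44 of 27025 genes, which include the class I-like gene H2-M3. TGACG alone was in 17.8% of windows, ATTGG in 33.8%, GAANNGAAA in 6.31% and GAAANNGAAA in 2.98%. Over the 110 bases H2-K1 and H2-D1 were identical at 98 positions (89.1%), whereas the other pairs of these 5 promoters shared 21.8% to 46.4%. A match of letters is a description of the promoter and shows no binding.

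Each value below is the authors' TMM-normalized CPM, the reads on a gene after each library was brought to a common size by the trimmed mean of M-values, as deposited. The 8 libraries held between 13417512 and 16384565 reads on genes, and 3 reads correspond to a value of 0.181 to 0.225. Irf4 itself was at 1.35 ± 0.451 (SD, n = 4) in flox and 0.715 ± 0.324 (SD, n = 4) in MI4KO mice, on 4 to 23 reads per mouse, and flox mouse 1 (0.686) lay inside the MI4KO range. All 6 slow fibre markers of SOL were detected in every mouse, with summed values of 25467 to 34184. Flox mouse 1 carried liver transcripts (12 summed liver markers at 159.0, against 2.10 to 3.19 in the other flox mice and 1.20 to 1.94 in the MI4KO mice), and MI4KO mouse 3 stood apart for glucocorticoid-responsive genes (7 summed markers at 836.9 against 232.8 to 333.8). Genes, ratios, marker sums and correlations were therefore also computed without both mice.

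No antigen presentation gene passed the test between MI4KO and flox SOL. MI4KO was compared with flox by limma on log2(value + 1), and the 9 genes other than Ciita passed the filter (1 or more in 4 or more mice) and could be tested. No member had an unadjusted p under 0.05, against 3.36% of the 11865 genes tested (399 genes), and none passed p under 0.05 with at least a 1.5-fold change, against 0.219% of all genes (26 genes). No gene at all had a Benjamini-Hochberg adjusted p under 0.05 in limma (0%), and none did in edgeR or DESeq2 on the recovered reads, where 363 and 248 genes had an unadjusted p under 0.05. The MI4KO and flox values overlapped for each of the 10 members, whereas 2.07% of all genes tested had groups that did not overlap. The log2 fold change was below 0 for 8 of the 9 members, with a median of -0.14, beside 56.2% of all genes with a median of -0.015. Without flox mouse 1 and MI4KO mouse 3, all 9 were below 0 with a median of -0.18, and 1 of them, Tapbp, had an unadjusted p under 0.05, but all genes moved as well, with 64.8% below 0, a median of -0.044 and 637 genes under that limit. The median of the members was -0.064 without flox mouse 2 and lay between that and -0.17 with each mouse left out. That background depends on the scaling of the libraries: with scaling by library size 40.1% of all genes were below 0, while the 8 members stayed below 0. Likewise 87.7% of the 399 genes with an unadjusted p under 0.05 were lower in MI4KO mice, against 33.4% of the genes past that limit with scaling by library size and 67.3% with median-of-ratios factors.

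**Figure D1:**
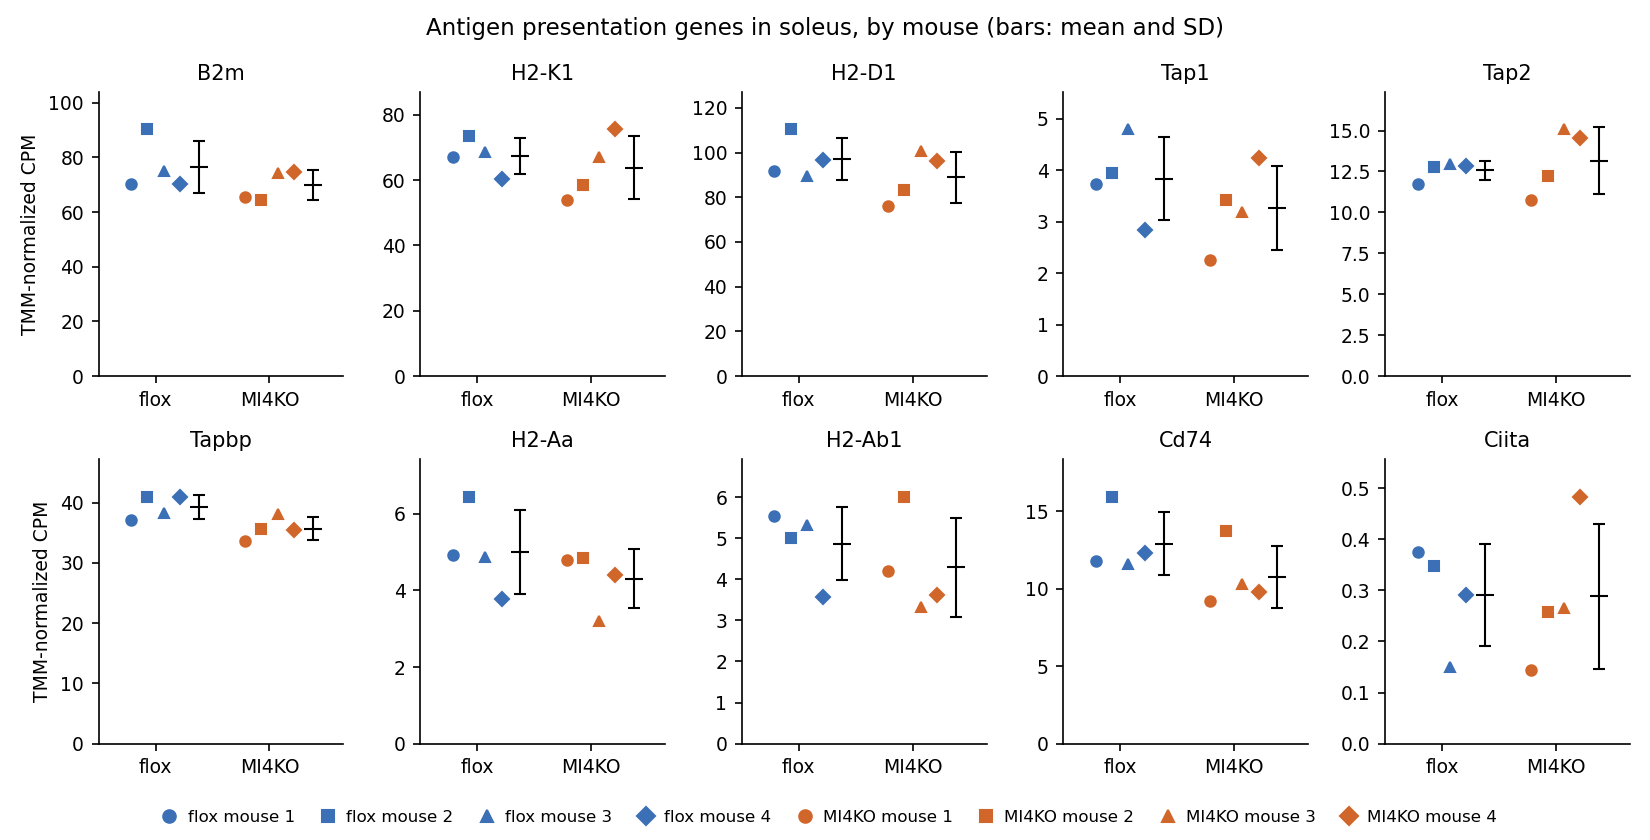
TMM-normalized CPM of the 10 antigen presentation genes in SOL (y axes, linear, from 0), with 1 symbol per mouse (circle, square, triangle and diamond for mice 1 to 4) in flox (blue) and MI4KO (orange), and the mean ± SD of 4 mice in black. The groups overlap in every panel, and MI4KO mouse 1 is the lowest of all mice for 6 of the 9 genes tested.

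Among class I genes, B2m was at 70.3, 90.3, 75.0 and 70.3 in flox mice 1 to 4 and at 65.6, 64.5, 74.3 and 74.6 in MI4KO mice 1 to 4. MI4KO mice 1 and 2 lay below every flox mouse, whereas MI4KO mice 3 and 4 lay among them, and flox mouse 2 was the highest of all. The log2 fold change was -0.13 (SE 0.093, 95% interval -0.33 to 0.07, p = 0.196 by limma and 0.229 by exact permutation), and 904 to 1302 reads per mouse stand behind the values. H2-K1, a classical heavy chain, was at 67.1, 73.5, 68.7 and 60.3 in flox and at 53.8, 58.6, 66.9 and 75.6 in MI4KO mice. The MI4KO mice spanned the range more widely than the flox mice, since MI4KO mouse 1 was the lowest and MI4KO mouse 4 the highest of the 8. Its log2 fold change was -0.09 (SE 0.104, interval -0.31 to 0.14, p = 0.416 by limma and 0.486 by exact permutation). H2-D1, the other classical heavy chain of this strain, was at 91.8, 110.5, 89.4 and 96.5 in flox and at 75.9, 83.5, 100.5 and 96.1 in MI4KO mice. MI4KO mice 1 and 2 were again below every flox mouse, and the log2 fold change was -0.13 (SE 0.099, interval -0.34 to 0.09, p = 0.220 by limma and 0.314 by exact permutation). Reads of the heavy chains may be split among copies by the authors' counting, since 14.3% of the windows of 50 bases, the read length, in the H2-D1 transcript and 8.79% of those in H2-K1 also occur in other genes, against 0% for B2m, H2-Aa, H2-Ab1, Cd74 and Ciita.

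Of the peptide transporter genes, Tap1 was at 3.74, 3.95, 4.80 and 2.84 in flox and at 2.25, 3.43, 3.19 and 4.23 in MI4KO mice, on 31 to 70 reads. Only MI4KO mouse 1 lay below the lowest flox mouse, and the log2 fold change was -0.18 (SE 0.168, interval -0.55 to 0.18, p = 0.296 by limma and 0.371 by exact permutation). The annotated start of Tap1 shares 212 bases with the immunoproteasome gene Psmb9 on the opposite strand. The kit marks strand, but whether the counting used it is not given in the sources used here, so reads from those bases may belong to either gene. Tap2 was at 11.7, 12.8, 13.0 and 12.8 in flox and at 10.7, 12.2, 15.1 and 14.6 in MI4KO mice. The flox mice lay close together, and the MI4KO mice lay on both sides of them, with mice 3 and 4 above every flox mouse. Tap2 was the member with a positive log2 fold change, 0.05 (SE 0.111, interval -0.19 to 0.29, p = 0.660 by limma and 0.714 by exact permutation), and the sign turned without MI4KO mouse 3 (-0.016). The ratio of Tap1 to Tap2, which form 1 transporter, was taken within each mouse on the log2 scale, and its mean was -1.50 ± 0.245 (SD, n = 4) in flox and -1.74 ± 0.189 (SD, n = 4) in MI4KO mice (difference -0.23, exact two-sided permutation test, p = 0.143).

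Tapbp, which encodes tapasin, varied least among the members. It was at 37.1, 41.0, 38.3 and 41.0 in flox and at 33.6, 35.6, 38.2 and 35.5 in MI4KO mice. MI4KO mice 1, 2 and 4 were below every flox mouse, and MI4KO mouse 3 was inside the flox range. The log2 fold change was -0.14 (SE 0.074, interval -0.30 to 0.02, unadjusted limma p of 0.0884). Permuting the 8 values of Tapbp exactly, two-sided, gave p = 0.0571, where 0.0286 is the smallest p that 4 mice against 4 allow. With MI4KO mouse 3 left out, Tapbp differed by -0.17 on the log2 scale (unadjusted limma p of 0.0419), and without MI4KO mouse 3 and flox mouse 1 by -0.20 (p of 0.0332), so that the call of Tapbp at an unadjusted p under 0.05 rests on leaving out MI4KO mouse 3. The interval of Tapbp on all 8 mice runs from 0.814-fold to 1.02-fold.

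The groups overlapped for the class II genes too. H2-Aa was at 4.93, 6.45, 4.88 and 3.79 in flox and at 4.79, 4.85, 3.19 and 4.41 in MI4KO mice, on 48 to 93 reads. Flox mice 1 to 3 lay above every MI4KO mouse, flox mice 1 and 3 by a small margin, while flox mouse 4 lay among the MI4KO mice, and the log2 fold change was -0.17 (SE 0.156, interval -0.51 to 0.16, p = 0.285 by limma and 0.314 by exact permutation). H2-Ab1 was at 5.55, 4.99, 5.33 and 3.57 in flox and at 4.21, 6.01, 3.32 and 3.63 in MI4KO mice. Here the highest mouse was MI4KO mouse 2, and the log2 fold change was -0.16 (SE 0.168, interval -0.52 to 0.21, p = 0.361 by limma and 0.457 by exact permutation). The within-mouse log2 ratio of H2-Aa to H2-Ab1, whose products pair into 1 molecule, was 0.03 ± 0.209 (SD, n = 4) in flox and 0.02 ± 0.219 (SD, n = 4) in MI4KO mice (difference -0.015, exact permutation test, p = 0.943).

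Of the 9 members tested, Cd74 was at the lowest log2 fold change. The gene of the invariant chain, on the plus strand of chromosome 18 from 60803848 to 60812652, was at 11.8, 16.0, 11.6 and 12.3 in flox and at 9.21, 13.7, 10.3 and 9.79 in MI4KO mice. MI4KO mice 1, 3 and 4 were below every flox mouse, while MI4KO mouse 2 was above all flox mice but mouse 2. The log2 fold change of Cd74 was -0.25 (SE 0.134, interval -0.54 to 0.04, unadjusted limma p of 0.0877), and the exact permutation test gave p = 0.143. Without MI4KO mouse 2 it was -0.36 with an unadjusted limma p of 0.0135, so Cd74, too, passed the unadjusted limit once a single mouse was left out. The within-mouse ratio of Cd74 to H2-Ab1 differed by -0.09 between the groups (exact permutation test, p = 0.629). Ciita, the master coactivator of class II genes, was near the limit of detection at 0.374, 0.347, 0.150 and 0.291 in flox and at 0.145, 0.259, 0.266 and 0.483 in MI4KO mice. These values rest on 2 to 8 reads per mouse, Ciita did not reach the filter, and a difference could not be detected at this depth (exact permutation test, p = 0.971).

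**Figure D2:**
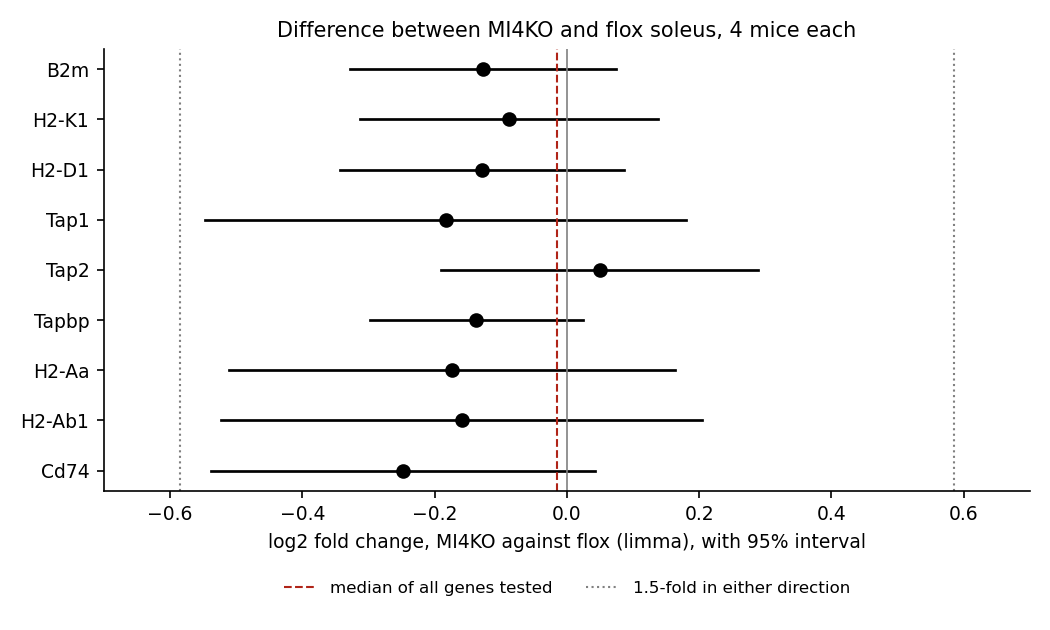
Log2 fold change of MI4KO against flox SOL for the 9 genes tested (x axis, points) with 95% intervals from limma (lines), the median of all genes tested (red dashes) and 1.5-fold in either direction (grey dots). On the log2(value + 1) scale every interval includes 0 and lies inside 1.5-fold, and Tap2 has the 1 point to the right of 0.

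The 95% intervals of all 9 genes tested stayed within 1.5-fold in both directions, from a lower end of 0.685-fold for Tap1 to an upper end of 1.22-fold for Tap2. This statement is on the log2(value + 1) scale, which understates the change of genes with low values, and does not extend to fold changes of the values themselves. With a pseudocount of 0.5, for example, the log2 fold change of Tap1 was -0.21 instead of -0.18. The coefficient of variation over the 8 mice ran from 7.05% for Tapbp to 22.7% for Tap1 among the genes tested, with a median of 11.4%, equal to the 11.4% of all genes tested. Flox mouse 2 was the highest of all mice for 4 of the 9 genes and MI4KO mouse 1 the lowest for 6, among them all class I genes but B2m. When mice with lower and higher label numbers, a division that the labels do not call a batch, were compared apart, H2-K1 differed by -0.25 on the log2 scale in the lower range (1 flox, 2 MI4KO mice) and by 0.08 in the higher range (3 flox, 2 MI4KO mice). Tap2 turned in the same way (-0.03 and 0.19). The other 7 genes were below 0 in both ranges, some of them barely. H2-D1 was at -0.0022 and Tap1 at -0.035 in the higher range, and H2-Aa was at -0.026 in the lower range. The 1 flox mouse of the lower range was flox mouse 1, which carried liver transcripts.

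Levels can be compared between genes only per length of transcript, and here the mean TMM-normalized CPM per kb of the longest coding transcript of GENCODE M21 is used. B2m was the most abundant at 85.0 per kb, followed by H2-D1 at 44.3 and H2-K1 at 40.5. H2-D1 was above H2-K1 in 7 of 8 mice, and their ranges overlapped. Tapbp at 12.9 and Cd74 at 8.39 came next, each apart from its neighbours in every mouse. H2-Aa at 4.13, H2-Ab1 at 3.78 and Tap2 at 3.74 could not be ordered, since each exceeded the next in only 5 of 8 mice. Tap1 was at 1.20 per kb, below Tap2 in every mouse, and Ciita at 0.0482. The classical heavy chains H2-K1 and H2-D1 together exceeded H2-Aa and H2-Ab1 together by 8.20-fold to 16.0-fold per kb. This ratio was highest in MI4KO mouse 3 and lowest in MI4KO mouse 2, and the groups overlapped (exact permutation test of the log2 ratios, p = 0.800).

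**Figure D3:**
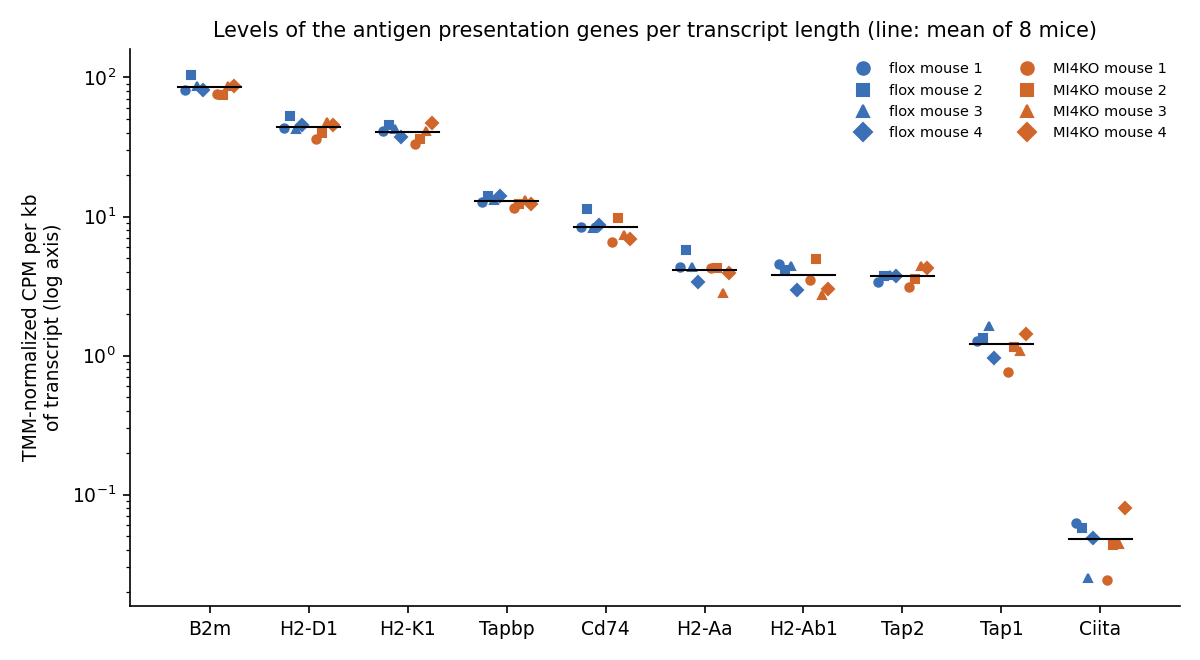
TMM-normalized CPM per kb of transcript (y axis, log scale) for the 10 genes in descending order, 1 symbol per mouse in flox (blue) and MI4KO (orange), with the mean of 8 mice as a line. B2m stands at 85.0 and Ciita at 0.0482 per kb, and H2-Aa, H2-Ab1 and Tap2 share a range.

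Several class I genes varied with H2-K1 from mouse to mouse, but no relation passed adjustment. Across the 8 mice, H2-K1 had a Pearson r of 0.825 with Tap1 (Spearman rho 0.857), 0.777 with B2m (rho 0.833), 0.777 with H2-D1 (rho 0.548), 0.666 with Tap2 (rho 0.524) and 0.407 with Tapbp (rho 0.238). H2-Ab1 had an r of 0.704 with H2-Aa (rho 0.786), 0.554 with Cd74 (rho 0.429) and -0.18 with Ciita (rho -0.12). Among the 10 relations computed, exact permutation p-values of r were 0.0114 for Tap1, 0.0194 for B2m and 0.0225 for H2-D1 with H2-K1 and 0.0426 for H2-Aa with H2-Ab1, and 0.0728 or more for the others. Those of rho were 0.0107, 0.0154, 0.171 and 0.0279 for the same 4 relations and 0.197 or more for the others. None passed 0.05 after Benjamini-Hochberg adjustment over the 10, the smallest adjusted value being 0.0750. The 2 mice farthest from the median of H2-K1 were MI4KO mice 1 and 2. Without them r was 0.718 with Tap1 and 0.603 with B2m, but 0.302 with H2-D1, 0.276 with Tap2 and -0.48 with Tapbp. The size of the last 3 thus depended on those mice, whose removal also narrows the span of H2-K1. Without flox mouse 1 and MI4KO mouse 3 instead, r was 0.791 with H2-D1, 0.852 with Tap2 and 0.409 with Tapbp. Without the 2 mice farthest from the median of H2-Ab1, MI4KO mice 2 and 3, r was 0.654 with H2-Aa and 0.401 with Cd74. All of these genes share a library and its scaling within each mouse. Taken from the group means, the residuals gave r of 0.808 for H2-K1 with Tap1, 0.755 with H2-D1, 0.761 with Tap2 and 0.307 with Tapbp. Those of H2-Ab1 gave 0.665 with H2-Aa. The ranges of mouse numbers hold 3 and 5 mice, too few for a value within each.

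**Figure D4:**
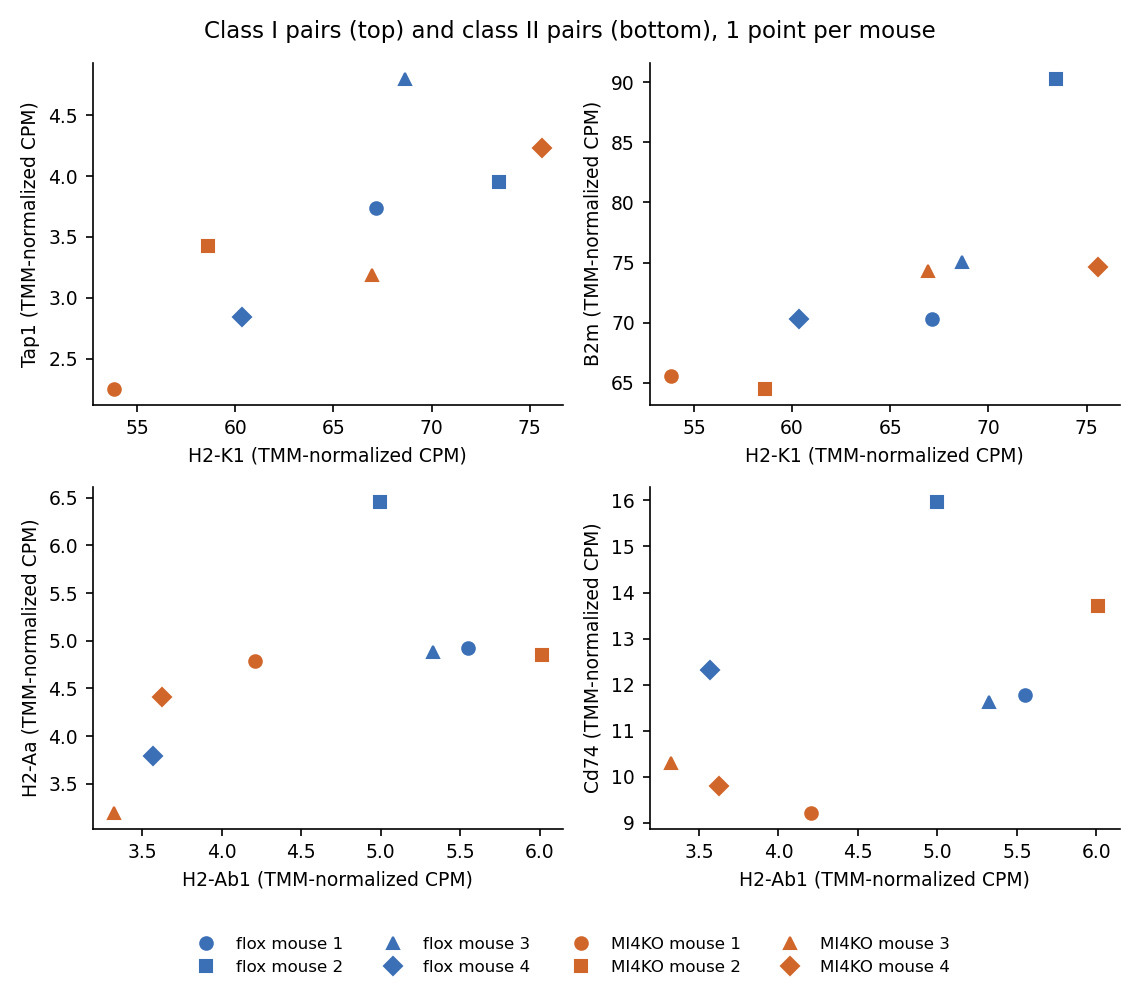
TMM-normalized CPM of Tap1 and B2m against H2-K1 (top) and of H2-Aa and Cd74 against H2-Ab1 (bottom), 1 point per mouse, flox in blue and MI4KO in orange with symbols for mice 1 to 4, and axes that do not start at 0. Tap1 is higher where H2-K1 is higher over the mice of both groups (r = 0.825), and Cd74 follows H2-Ab1 less closely (r = 0.554).

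Many other genes had relations of this strength. Over the 11864 other genes tested, Tap1 ranked 103 for its r with H2-K1, B2m 195 and H2-D1 197, and H2-Aa ranked 131 for its r with H2-Ab1. The genes most like H2-K1 over the 8 mice were Parm1 (r = 0.963), Trp53rk, Ptplb, Dopey2 and Rybp (r = 0.940), and those most like H2-Ab1 were B930003M22Rik (r = 0.962), Gjb2, Kcne1l, Nup43 and Map6 (r = 0.909). No other class I or class II gene was among them. Between the classes, r was -0.07 for H2-Ab1 with H2-K1.

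Markers of the cells that carry these genes were examined in the same libraries. In bulk muscle, fewer cells of a type and less RNA per cell cannot be told apart. The 11 summed macrophage markers ranged from 51.2 to 63.8 in flox and from 51.2 to 72.4 in MI4KO mice (exact permutation test, p = 0.457), all 11 were detected, and none of the 9 tested had an unadjusted p under 0.05, with 7 of them above 0 and a median log2 fold change of 0.07, on the other side of 0 from the class II members. Emr1, the gene of the macrophage marker F4/80, missed the filter on 9 to 18 reads and was at 0.675 to 0.873 in flox and at 0.943 to 1.13 in MI4KO mice, without overlap (exact permutation test, p = 0.0286). Any gene without overlap gets this p, the smallest that 4 mice against 4 allow. Emr1 was picked once its values were known, and 2.07% of all genes tested had groups that did not overlap. The 9 summed dendritic cell markers ranged from 4.58 to 5.76 and from 4.47 to 5.38 (p = 0.229, exact permutation test), with Flt3 and Batf3 under 3 reads in every mouse. B cell markers summed to at most 0.874, with Pax5 under 3 reads in every mouse, and T cell markers to at most 0.582, with Cd3e, Cd3g and Cd4 under 3 reads. Ptprc, the pan-leukocyte gene, lay between 0.437 and 0.694 in flox and between 0.465 and 0.725 in MI4KO mice. The summed neutrophil markers (5 of 6 in the table) lay between 1.58 and 2.19 in flox and between 1.55 and 5.98 in MI4KO mice, highest in MI4KO mouse 3. No relation was detected of H2-Ab1 with the macrophage sum (r = -0.23, rho = -0.24, exact permutation p = 0.569 and 0.582) or with the dendritic cell sum (r = -0.16, rho = -0.26, exact permutation p = 0.690 and 0.536), and the latter turned to 0.101 without MI4KO mice 2 and 3. Without flox mouse 1 and MI4KO mouse 3, r with the macrophage sum was 0.047.

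Endothelial markers, like most class I genes, had lower means in MI4KO mice. All 6 had a log2 fold change below 0, as did all 6 slow fibre markers of SOL (median -0.07) and 56.2% of all genes tested. Of the 6 fast fibre markers, 3 lay on either side of 0. Beside 3.36% of all genes tested, 2 endothelial markers had an unadjusted p under 0.05. They were Kdr (-0.37, SE 0.143, unadjusted limma p of 0.0239) and Cdh5 (-0.29, SE 0.115, unadjusted limma p of 0.0281), with adjusted p of 1.0. Neither kept an unadjusted p under 0.05 in every alternative (highest p of 0.0841 for Kdr and 0.0833 for Cdh5 by limma), and leaving out a single mouse was enough to lose it, flox mouse 2 or 3 or MI4KO mouse 1 for both, MI4KO mouse 3 for Kdr and flox mouse 4 for Cdh5. The sum of all 6 endothelial markers ran from 338.5 to 415.0 among flox mice and from 258.5 to 361.0 among MI4KO mice. It was lowest in MI4KO mouse 1, the mouse that was also lowest for H2-K1, H2-D1, Tap1, Tap2 and Tapbp. The sums differed by -0.24 on the log2 scale (exact permutation test, p = 0.114). Adipocyte markers also had lower means, with 4 of 5 log2 fold changes below 0 and a median of -0.45. Their sum ran from 27.9 to 38.8 in flox and from 10.5 to 46.4 in MI4KO mice (exact permutation test, p = 0.400). MI4KO mice 1 and 4, the lowest and the highest for it, were also the lowest and the highest for H2-K1. MI4KO mice 2 and 3 were in opposite order, at 31.9 and 17.2 for the sum and at 58.6 and 66.9 for H2-K1. No correlation of the sum with H2-K1 was computed. Cfd, which encodes the adipokine adipsin, had an unadjusted p under 0.05 (-0.65, SE 0.280, p of 0.0394 and adjusted p of 1.0 by limma), as it did in 4 of 18 alternatives, and the call was lost without flox mouse 2, 3 or 4 or MI4KO mouse 1 or 3. The part of endothelial and adipocyte markers in the class I values was not tested.

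**Figure D5:**
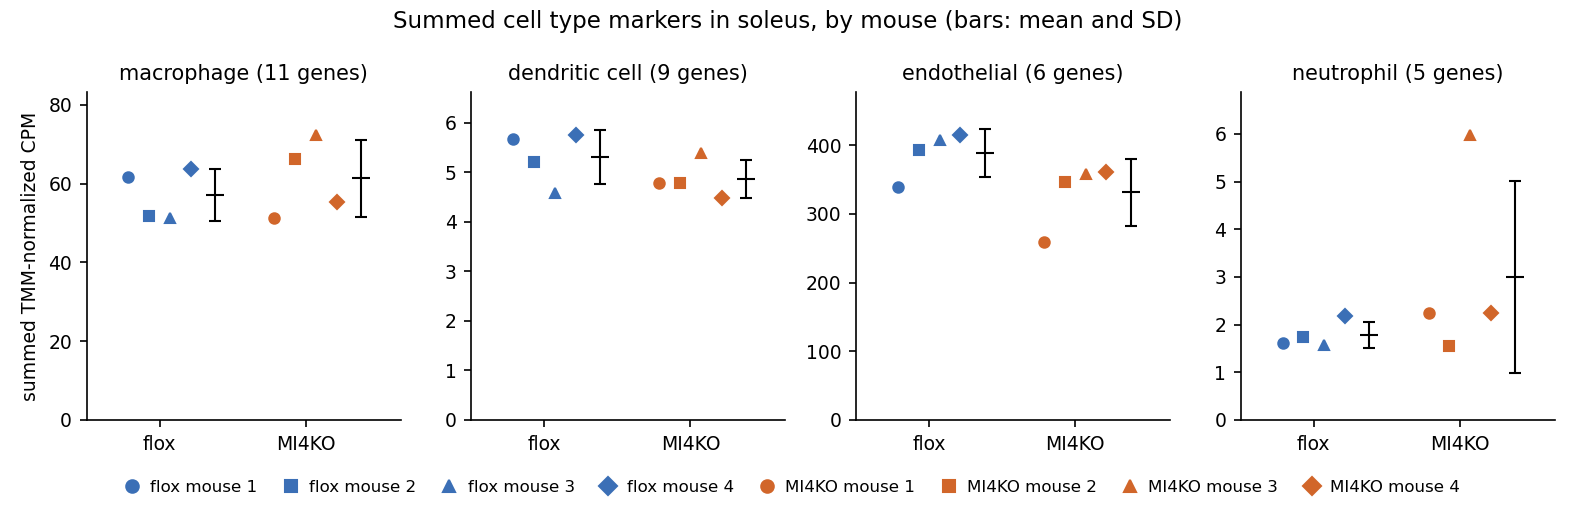
Summed TMM-normalized CPM of macrophage, dendritic cell, endothelial and neutrophil markers (y axes, linear, from 0), 1 symbol per mouse in flox (blue) and MI4KO (orange), with the mean ± SD of 4 mice in black. The macrophage and dendritic cell sums overlap between the groups, MI4KO mouse 1 has the lowest endothelial sum (258.5) and MI4KO mouse 3 the highest neutrophil sum (5.98).

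Other genes of antigen presentation were taken from fixed lists of 68 genes, of which 48 were tested. None was higher and 3 were lower in MI4KO mice at an unadjusted p under 0.05, beside 3.36% of all genes tested, of which 350 of 399 were lower, none reached a fold change of 1.5 with it, and none had an adjusted p under 0.05. Of the 48, 36 had a log2 fold change below 0, with a median of -0.05, beside 56.2% of all genes. Among regulators of MHC transcription, 1 of 8 passed. Rfx5, a subunit of the RFX complex that binds the X box beside X2, was at 4.68, 5.27, 5.18 and 5.46 in flox and at 4.35, 3.62, 4.32 and 4.53 in MI4KO mice. Every MI4KO mouse was below every flox mouse, and the log2 fold change of Rfx5 was -0.24 (SE 0.111, unadjusted p of 0.0490 and adjusted p of 1.0 by limma). Nlrc5, the coactivator of class I genes, ranged from 1.12 to 2.71 in flox and from 1.03 to 2.12 in MI4KO mice, with a log2 fold change of -0.15 (SE 0.196).

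Among the 9 tested genes of the interferon gamma signal, only Irf4, the gene deleted in MI4KO mice, passed (-0.45, SE 0.197, unadjusted p of 0.0402 and adjusted p of 1.0 by limma). Ifng itself had no read in any mouse, which allows a value of up to 0.225 per mouse. Irf1, which switches on class I genes, had a log2 fold change of -0.14 (SE 0.101). Of the 2 co-stimulatory ligands tested, Cd274, which encodes PD-L1, was at 5.30, 5.27, 4.13 and 4.88 in flox and at 3.63, 3.69, 3.79 and 4.35 in MI4KO mice. MI4KO mice 1 to 3 were below every flox mouse, and the log2 fold change of Cd274 was -0.28 (SE 0.117, unadjusted p of 0.0353 and adjusted p of 1.0 by limma). These 3 calls were not stable, since under 18 alternatives the unadjusted p was under 0.05 in 5 for Rfx5 and in 8 each for Cd274 and Irf4, and its highest value was 0.141, 0.123 and 0.120, respectively. It was 0.05 or more without flox mouse 2 or 4 or MI4KO mouse 1 or 3 for all 3 genes, without flox mouse 3 for Rfx5 and Irf4, without MI4KO mouse 2 for Rfx5 and Cd274, and without flox mouse 1 for Cd274, while the log2 fold change stayed below 0 for each.

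All 5 genes of the immunoproteasome, which cuts proteins into class I peptides, and of its activator had a log2 fold change below 0 and none passed. They ran from -0.12 for Psmb9 to -0.03 for Psmb10. Psme2 ranged from 31.2 to 33.1 in flox and from 29.2 to 31.0 in MI4KO mice, without overlap, at a log2 fold change of -0.11 (SE 0.070, p = 0.140 by limma and 0.0286 by exact permutation), but 59.3% of its 50-base windows also occur in other genes. With Rfx5 it made 2 of 48 genes whose groups did not overlap, beside 2.07% of all genes tested. Peptide loading and trimming genes ran from -0.08 for Pdia3 to 0.02 for Tapbpl, and none of 6 passed. Of 7 other class II genes, H2-Eb1, a further beta chain, was the 1 that could be tested (-0.29, SE 0.172, p = 0.113 by limma and 0.257 by exact permutation), at 4.80, 4.79, 3.75 and 4.59 in flox and 3.12, 4.98, 2.26 and 3.93 in MI4KO mice. MI4KO mouse 2 was the highest for H2-Eb1, as it was for H2-Ab1. The 6 lysosomal processing genes had log2 fold changes from -0.22 for Ifi30 to 0.25 for Ctss, 3 on either side of 0, and none passed.

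Of 21 other class I and class I-like heavy chains, 11 were tested and none passed. Some of these genes share stretches of sequence. H2-T22 ranged from 0 reads in MI4KO mouse 3 to 8.60 in MI4KO mouse 2, and H2-T9 was lowest (4.98) in MI4KO mouse 2. The coefficient of variation over the 8 mice was 70.6% for H2-T22 and 26.0% for H2-T9 but 14.1% for their sum, a sum chosen after the values were seen, and 44.7% of the 50-base windows of H2-T22 occur in other genes, mainly H2-T10 (37.9%). Windows shared with H2-T9 were not measured. Among flox mice the sum ran from 14.5 to 18.6, and among MI4KO mice from 12.6 to 15.5 (exact permutation test, p = 0.114). H2-Q10, known as a secreted class I molecule made by the liver, was at 4.99 in flox mouse 1, which carried liver transcripts, and at 0.145 to 1.32 in the other mice. H2-L was listed with reads in flox mice 1 and 2 (1.62 and 0.555) and with none in the other 6. Adding it to H2-D1 left the log2 difference between the groups at -0.14 (exact permutation test, p = 0.314). H2-Q4 and H2-T23, non-classical class I genes, had log2 fold changes of -0.06 (SE 0.101) and -0.11 (SE 0.098).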

How the data were processed

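SOL RNA of 4 MI4KO and 4 flox mice was sequenced by the authors from stranded poly(A) libraries as single reads of 50 bases. Per the submitters' processing notes, bcl2fastq 2.17, Bowtie2 2.1.0 and RSEM 1.2.15 were used with mm10. The authors deposited a signal, the TMM-normalized CPM of each gene and mouse. Their own comparison, deposited as a signed fold-change score, a p-value and an FDR per gene, was not used here. Whole reads were recovered from the steps of the values (100% whole within 0.01 reads). The floor of 3 reads covers counting error only, and intervals are limma's, from the spread between mice. Between any 2 mice the chi-square over genes was at least 6.05 per degree of freedom, so no library was taken for a repeat of another. The labels do not say that libraries are from separate litters or days, and p-values measure the spread between these 8 libraries.

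Genes at 1 or more in 4 or more mice were compared by limma 3.58.1 (R 4.3.3), with its trend option, on log2(value + 1), with Benjamini-Hochberg adjustment over 11865 genes, and the script was tested on simulated counts. Single values were compared by exact two-sided permutation tests over all splits of the mice, and scipy 1.17.1 gave the ranks for rho. edgeR 4.0.16 and DESeq2 1.42.0 on recovered reads, another pseudocount, no filter, other scalings, other limma settings, a covariate for the range of mouse numbers and leaving out mice were alternatives. The named genes are the 10 members, the called, highest, lowest and defining genes of fixed lists of their pathways, and the 5 genes most like H2-K1 and H2-Ab1. H2-L, Psme2, Emr1, Cfd, Kdr, Cdh5, H2-T9, H2-T10, H2-T22, H2-Q4 and H2-T23 were picked once their values were known. Members and lists were chosen with earlier results of these data known. Positions are from GENCODE M21 by symbol, promoters from RefSeq, and shared windows from GENCODE transcripts. Some genes of the fixed lists are not reported here by name.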

Additional observations from a re-analysis of the deposited data

Results flagged for a closer look

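A mouse was looked at again where its gap to the nearest mouse of its group was large beside the span of its group on the log2 scale, by Dixon's 95% limit for 4 values. Gaps are given as a share of that span. Of 149 groups of 4 mice examined for the members, the other genes named, the ratios and the marker sums, 6 were past that limit, and chance gives about 1 in 20. Tap2 was lowest in flox mouse 1 at 11.7 (gap 0.835), where the other flox mice were at 12.8 to 13.0. Cdh5 was lowest in flox mouse 1 at 112.7 among flox mice (gap 0.839) and in MI4KO mouse 1 at 82.0 among MI4KO mice (gap 0.841). The summed endothelial markers in MI4KO mouse 1 were at 258.5 (gap 0.879), against 346.7 to 361.0 in the other MI4KO mice. The summed liver markers in flox mouse 1 were at 159.0 (gap 0.924), against 2.10 to 3.19 in the other flox mice. B930003M22Rik, the gene most like H2-Ab1, was lowest in flox mouse 4 at 0.729 on 10 reads (gap 0.964). No cause was tested for any of these.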

How the results depend on the processing

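No paired analysis was possible because the labels give each mouse its own number and the groups share none. The 9 members tested were recomputed under 18 alternatives, and none passed an adjusted p under 0.05. Over all genes, the count with an unadjusted p under 0.05 and at least a 1.5-fold change (26) was 41 with a pseudocount of 0.5, 13 with robust estimation, 65 in edgeR, 51 in DESeq2, 41 without flox mouse 1 and MI4KO mouse 3, and 19 to 58 with each mouse left out, highest without MI4KO mouse 4. The count with an adjusted p under 0.05 was 0 to 1 with each mouse left out (1 without MI4KO mouse 2) and 1 without flox mouse 1 and MI4KO mouse 3. The count with an unadjusted p under 0.05 (399) was 634 without the filter, where more genes were tested, 248 in DESeq2, 637 without flox mouse 1 and MI4KO mouse 3, and 258 (without flox mouse 3) to 618 (without MI4KO mouse 4) with each mouse left out. Log2 fold changes ran, with each mouse left out, from -0.16 to -0.045 for B2m, -0.17 to -0.011 for H2-K1, -0.19 to -0.055 for H2-D1, -0.29 to -0.058 for Tap1, -0.28 to -0.064 for H2-Aa, -0.30 to -0.070 for H2-Ab1, -0.016 to 0.14 for Tap2, -0.17 to -0.11 for Tapbp and -0.36 to -0.15 for Cd74. Without flox mouse 1 and MI4KO mouse 3 they were -0.047 for Tap2, -0.20 for Tapbp and -0.012 for H2-Ab1, and, in alternatives chosen after seeing the data, the log2 difference turned to -0.12 for the ratio of class I to class II chains and to -0.22 for glucocorticoid-responsive genes, and r of H2-Ab1 with the macrophage sum to 0.047. The difference of Ciita, on 2 to 8 reads, ran from -0.076 to 0.049 with each mouse left out, and was 0.032 without both mice and 0.0022 with scaling by library size. Differences in within-mouse ratios ran from -0.084 to 0.079 for H2-Aa to H2-Ab1, from -0.18 to 0.0081 for Cd74 to H2-Ab1, from -0.35 to -0.15 for Tap1 to Tap2 and from -0.0097 to 0.088 for H2-K1 to H2-D1, none of them past 0.05 in an exact permutation test. Without the 2 mice farthest from the median, r turned to 0.101 for H2-Ab1 with the dendritic cell sum and to -0.48 for H2-K1 with Tapbp. The cause of these changes was not tested. Depth limits Ciita most, and Tap1, H2-Aa and H2-Ab1 rest on 31 to 93 reads per mouse.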
